A study of Mus musculus with 6 samples.

Results

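The genes described here encode the enzymes, chaperones and export factors that turn newly made procollagen into a crosslinked fibre. They were taken from a list of 35 named genes, set by what the proteins do but chosen with earlier results of these data known. The 35 were all found by symbol among the 55487 gene IDs of the count table. All 35 also passed the minimum of 10 counts summed over the libraries that 26596 genes reached. They fall into the prolyl 4-hydroxylases (4 genes), the prolyl 3-hydroxylases and their partners (6), the lysyl hydroxylases and collagen galactosyltransferases (5), the collagen chaperones (3), the machinery that exports procollagen and its transcriptional control (6), propeptide cleavage (5) and crosslinking (5), with 1 further listed gene, Leprotl1, for which no step in collagen maturation was assigned.

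RNA-Seq was done on rib cages of 16.5 dpc mouse embryos from which connective tissue had been removed by dissection, 3 labelled wild type (E420, E434 and E435, here the controls) and 3 labelled Col2-cre;Foxc1-/-;Foxc2-/- (E423, E433 and E440, here the mutants). In the mutants Cre recombinase, driven by the regulatory sequence of the type II collagen gene, deletes the forkhead transcription factor genes Foxc1 and Foxc2 in chondrocyte progenitors and their descendants, so cells outside that lineage keep a working copy of each gene. The study's crosses paired males carrying Col2-cre and 1 deleted copy of each gene with females homozygous for floxed copies, on a mixed C57B6/Black Swiss background, and compared littermates. In its skeleton figure the study's controls were embryos without Col2-cre. Every embryo of this cross takes a floxed copy of each gene from its mother, so controls from it would carry floxed alleles despite the wild type label. The sources used here do not say which other allele the controls carried or which embryos shared a litter. The comparison asks how loss of both factors in the cartilage lineage is reflected in rib cage mRNA.

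Fibrillar procollagen is assembled in the endoplasmic reticulum, where prolyl 4-hydroxylation makes the triple helix stable at body temperature. Prolyl 3-hydroxylation, lysyl hydroxylation and glycosylation follow on particular residues, chaperones hold the folded molecule, and enlarged COPII carriers take it out of the endoplasmic reticulum. Outside the cell the propeptides are cut off and lysyl oxidases create the aldehydes from which crosslinks form. Cartilage, bone, tendon, skin and muscle connective tissue all use this machinery, and inherited loss of many of its members causes brittle bone or connective tissue disease.

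The 6 libraries held between 37853988 and 47794799 counts assigned to genes, each end of a read pair being counted. Foxc1 was present at 23.1, 36.9 and 24.2 CPM, counts scaled to library size, in controls E420, E434 and E435 and at 3.56, 9.61 and 3.51 CPM in the mutants, numbered E423, E433 and E440, in the direction the labels give. Foxc2 was at 1.99, 4.83 and 3.22 CPM (controls) against 0.649, 1.14 and 0.737 CPM (mutants). The values of single libraries follow this order, E420, E434 and E435 for controls and E423, E433 and E440 for mutants. E434 and E433 stood apart from the other libraries of their groups. The summed level of 12 cartilage markers was 25362 CPM in E434 and 9334 CPM in E433 against 1436 to 1496 CPM in the other controls and 453 to 464 CPM in the other mutants, with no marker at 0 in any library. Summed keratinocyte markers were 20.3 CPM in E434, where Flg was at 0, 3258 CPM in E433, 5523 to 6286 CPM in the other controls and 27822 to 27904 CPM in the other mutants. Summed osteoblast markers were 11521 to 16642 CPM in the controls and 7996 to 8388 CPM in the mutants. Most of this was Col1a1, at 9798 to 14932 and 7152 to 7787 CPM. Of these 11 genes 10 had all mutants below all controls (8.21% of all genes). E433 was above the mean of the other mutants in 2 of the 11, with a median log2 ratio of -1.11. Ibsp was at 619, 247 and 605 CPM in E423, E433 and E440. Summed skeletal muscle markers were 10777 to 19054 CPM in the controls and 14483 to 26433 CPM in the mutants, adipocyte markers 132 to 145 and 203 to 603 CPM, hepatocyte markers 29.6 to 45.0 and 28.7 to 573 CPM, and erythroid markers 13269 to 16118 and 5544 to 10506 CPM. Macrophage markers were 140.7 to 150.9 CPM in the controls and 110.5 to 121.2 CPM in the mutants, and all 4 genes had log2 changes below 0 (median -0.34). Endothelial markers were 324 to 433.8 and 313.6 to 406 CPM. The fibroblast and tendon list summed to 8337 to 9380 CPM in the controls and 8599 to 11261 CPM in the mutants. Most of this was Col3a1, at 7674 to 8601 and 8006 to 10537 CPM. Of the 7 genes 5 had a log2 change, mutant over control, below 0 and 2 above, with a median of -0.37. All mutants lay below all controls in 3, Scx, Tnmd and Mkx (8.21% of all genes), and above in 1, Dpt (6.81%). E420 and E435, and likewise E423 and E440, were closely alike, with a standard deviation of the log2 ratio of 0.16 and 0.13 over genes against 0.48 to 1.31 for the other library pairs. Their counts still differed beyond counting noise, with a chi-square per degree of freedom of 10.9 and 3.65. Counting both read ends gives a value near 2 for 1 library sequenced again. These values cannot tell separate embryos from separate libraries of the same RNA. The labels name separate embryos, and each was kept as a separate sample. In bulk tissue, fewer cells of a type and less RNA per cell cannot be told apart, and the part that tissue make-up had in the values that follow was not tested.

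Most of the collagen maturation genes had lower mean values in the mutants, but the groups overlapped for nearly all of them. The log2 fold change, mutant over control, was below 0 for 33 of the 35 genes and for 12968 of all 26596 genes tested. The median was -0.41 for the members and 0.01 over all genes tested. In the quasi-likelihood test of edgeR, with Benjamini-Hochberg adjustment over all genes, no member passed an adjusted p under 0.1 together with a log2 change of at least 1, in either direction, and the adjusted p of the members ran from 0.235 to 0.965. The same rule called 8 of all 26596 genes lower (0.0301%) and 9 higher (0.0338%). At an unadjusted p under 0.05, 4 members were lower and 0 higher, where 4.7% of all genes were lower. DESeq2 called 1 member lower by both limits (background 0.557%), and 3 members by the adjusted p alone (background 1.73%). In 4 members every mutant lay below every control (background 8.21%), and in 0 members above (background 6.81%). Those 4 are Lox, Loxl4, Creb3l1 and Pcolce, the same that were lower at an unadjusted p under 0.05. Among 35 members, 4 with separate groups is near the background share, so that count by itself says little about the members.

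**Figure D1:**
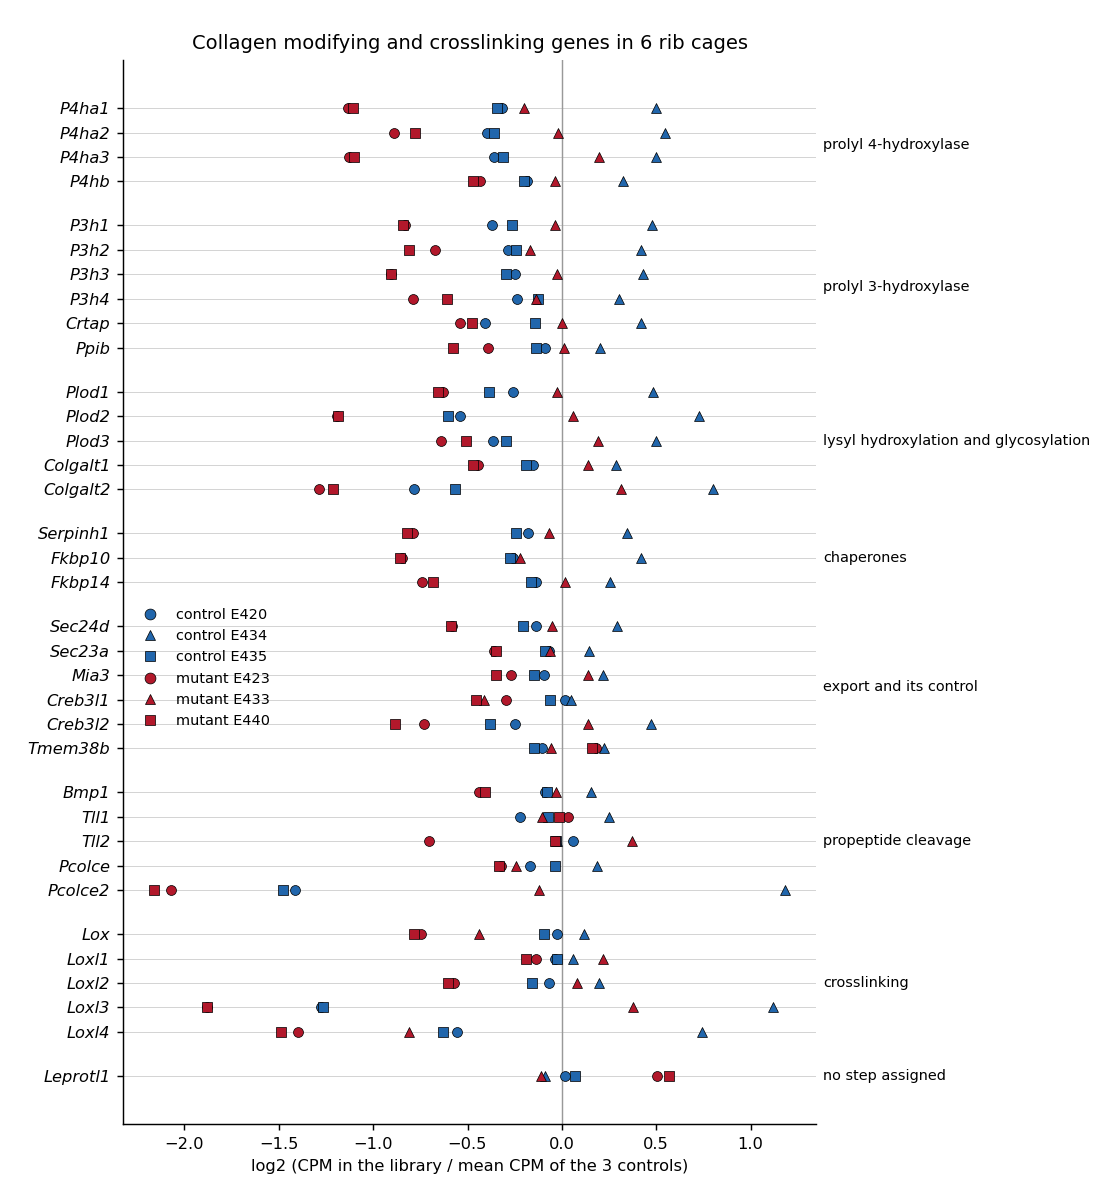
Each point is 1 library; the x axis is the log2 ratio of its CPM to the mean CPM of the 3 controls, and genes are grouped by their step. Mutants E423 and E440 (red circle and square) lie left of controls E420 and E435 (blue circle and square) for 32 genes, while control E434 (blue triangle) and mutant E433 (red triangle) lie to the right of the other libraries of their groups for most genes.

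Of the 4 genes whose groups did not overlap, a count near the background share, 2 were crosslinking genes. Lox (ENSMUSG00000024529.14, chromosome 18, 52516067 to 52529867, minus strand, GRCm38), the founding lysyl oxidase, which oxidises lysines of collagen and elastin, was read at 537, 592 and 511 CPM (controls) against 326, 403 and 318 CPM (mutants). The highest mutant was 21.2% below the lowest control. The means were 546.7 ± 41.3 and 348.7 ± 47.3 CPM (SD, n = 3 each), which was a log2 fold change of -0.65 ± 0.13 (standard error), or 63.8% of the control level. The adjusted p was 0.235 with edgeR and 0.000598 with DESeq2. Lox was the member with the lowest p in both fits.

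Loxl4, a lysyl oxidase-like gene with scavenger receptor domains (chromosome 19, 42593982 to 42612813, minus strand), had the largest change. It was read at 30.5, 75.1 and 28.9 CPM (controls) against 17.03, 25.5 and 16.0 CPM (mutants). Control E434 was 2.53 times the mean of the other controls, yet mutant E433 remained under the lowest control by 11.7%. The log2 fold change was -1.20 ± 0.41, with an adjusted p of 0.421 in edgeR and 0.0476 in DESeq2, which made Loxl4 the 1 member past both limits in that test. Without E434 alone the log2 fold change was -0.61, short of the fold limit, with an adjusted p of 0.438 in edgeR. Without E434 and E433, Loxl4 kept the largest log2 change of the members, -0.84 ± 0.07.

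**Figure D2:**
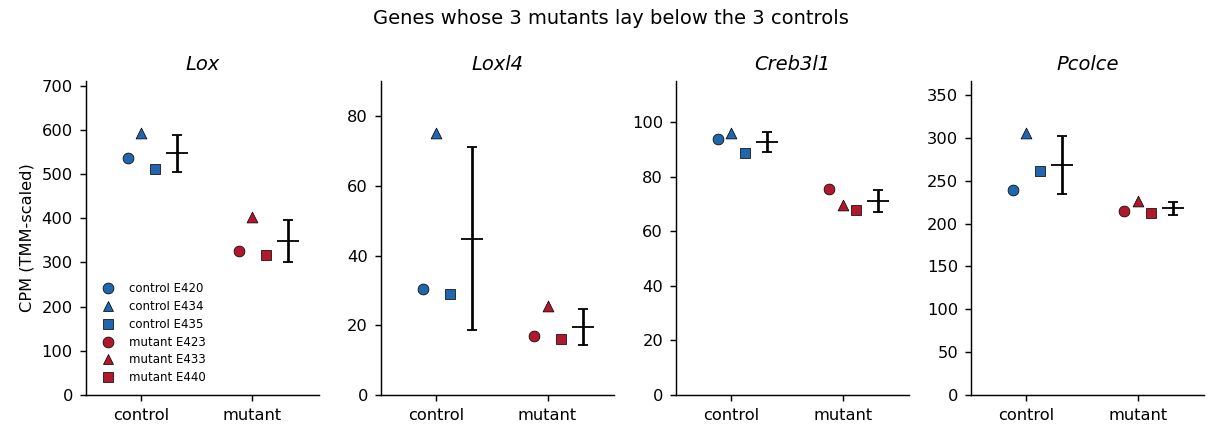
CPM in each library for Lox, Loxl4, Creb3l1 and Pcolce, with the mean and SD (n = 3) beside each group and the y axis from 0. Every mutant lies below every control; for Loxl4 control E434 at 75.1 CPM sets the wide spread of the controls.

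The other lysyl oxidases overlapped between the groups. Loxl2, which also crosslinks basement membrane collagen, was read at 217, 261 and 204 CPM (controls) against 153, 241 and 149 CPM (mutants), with a log2 fold change of -0.33 ± 0.21 and an adjusted p of 0.609 in edgeR. Loxl1, the lysyl oxidase tied to elastic fibres, differed least of the 5, at 117, 125 and 118 CPM (controls) against 109, 140 and 105 CPM (mutants). Here the log2 fold change was -0.02 ± 0.12. Loxl3 differed more between the libraries of a group than between the group means: E434 held 130 CPM and E433 77.9 CPM, where the other controls had 24.7 and 24.9 CPM and the other mutants 16.2 CPM each. The log2 fold change of -0.70 carried a standard error of 0.90. Without E434 and E433 it was -0.61 ± 0.08 (adjusted p = 1.8e-06 in edgeR). That p measures the spread within close pairs of libraries. In the same fit 18.3% of all genes were lower at an adjusted p under 0.1. For Loxl3, E433 was at 59.9% of E434.

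As shares of the summed TPM (transcript abundance, a level per transcript length) of the 5 lysyl oxidases, Lox made up 48.5% ± 5.31 in the controls and 43.6% ± 4.06 in the mutants (SD, n = 3 each). The share of Loxl1 was 15.9%, 12.6% and 16.8% in the controls and 21.7%, 18.8% and 21.6% in the mutants, so the groups did not overlap. The shares of Loxl2 (24.0% against 26.8%) and Loxl4 (4.98% against 2.96%) did not overlap either. In a two-sided exact permutation test over the 6 libraries these 3 shares had p = 0.1, the smallest that 3 against 3 libraries can give, and 0.383 after adjustment over the 23 shares tested in 8 families. Loxl3 made up 15.1% of the family in E434 and 10.5% in E433 but 3.38% to 4.06% elsewhere.

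**Figure D3:**
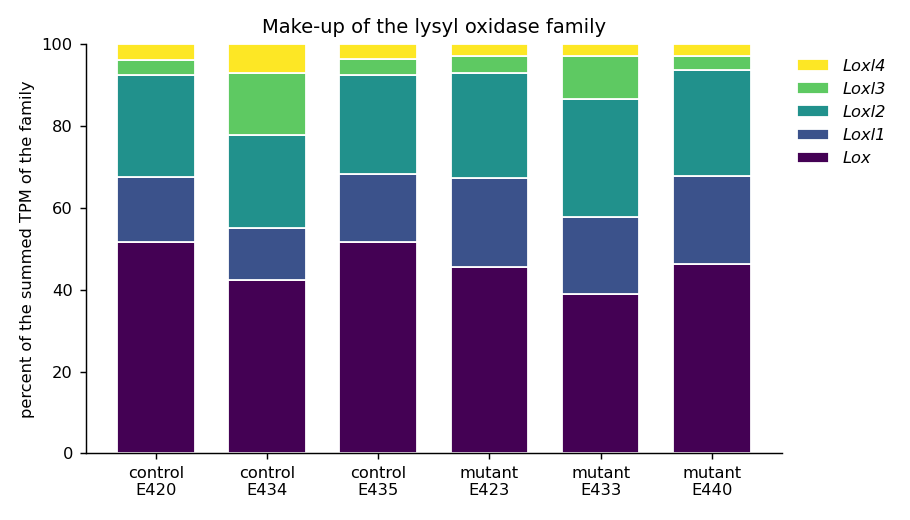
Stacked bars give, for each library, the percent of the summed TPM of the 5 lysyl oxidase genes that each gene holds. Loxl1 takes a larger share in the 3 mutants (18.8% to 21.7%) than in the 3 controls (12.6% to 16.8%), and Loxl3 is largest in E434 and E433.

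Among the export genes, Creb3l1 (OASIS, chromosome 2, 91982328 to 92024502, minus strand), a membrane-bound transcription factor that is cut free under endoplasmic reticulum stress and drives type I collagen genes in osteoblasts, had the smallest standard error of any member. It was read at 94.0, 96.0 and 88.8 CPM (controls) against 75.6, 69.7 and 67.8 CPM (mutants). Control E434 was 1.05 times the other controls and mutant E433 0.97 times the other mutants, so unlike most members Creb3l1 did not follow the libraries that stood apart. The log2 fold change was -0.39 ± 0.07, with an adjusted p of 0.235 in edgeR and 0.0080 in DESeq2. Its relative Creb3l2 (BBF2H7), which drives export genes in chondrocytes, was read at 110, 181 and 100 CPM (controls) against 78.5, 144 and 70.7 CPM (mutants), with E434 and E433 highest in their groups. This was a log2 fold change of -0.42 ± 0.34, with an adjusted p of 0.696 in edgeR. Creb3l1 made up 66.3% ± 6.52 of the summed TPM of the pair in the controls and 66.7% ± 8.24 in the mutants, with 58.8% in E434 and 57.2% in E433 against 69.2% to 71.5% in the other 4 libraries.

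The COPII coat proteins Sec23a and Sec24d and the cargo receptor Mia3 (TANGO1), which loads procollagen into its carriers, overlapped between the groups. Mia3, the highest of the export genes by mean TPM, was read at 131, 163 and 127 CPM (controls) against 117, 155 and 111 CPM (mutants). Sec23a was read at 158, 183 and 156 CPM (controls) against 129, 159 and 130 CPM (mutants), where E433 exceeded the lowest control by 1.78%. The log2 fold change of Sec23a was -0.25 ± 0.12, that of Sec24d -0.38 ± 0.20 and that of Mia3 -0.14 ± 0.16, with adjusted p of 0.505, 0.537 and 0.782 in edgeR. Tmem38b (TRIC-B), a cation channel of the endoplasmic reticulum membrane whose loss disturbs collagen processing in bone, was 1 of the 2 members with a mean above the controls, at 53.9, 67.5 and 52.3 CPM (controls) against 65.7, 55.7 and 64.8 CPM (mutants). Its log2 fold change was 0.10 ± 0.13.

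Promoter windows of 300 bases, 250 before to 50 after the transcript start (RefSeq, GRCm38.p6), were given for 22 of the 35 members. The 7 letters TGACGTG, the core bound by factors of the unfolded protein response and by CREB3-type factors such as Creb3l1 and Creb3l2, were found on either strand in 3 of these 22 members, all of them export genes, and in 2.01% of all 32851 windows. The shorter ACGTG, which lies within it and is also the core of the hypoxia response element, was found in 11 of the 22 members, among them P4ha1, P4ha2, P4hb, Serpinh1 and Ppib, and in 19.6% of all windows. The forkhead letters GTAAACA were found in 0 of the 22 and in 3.65% of all windows. These are matches of letters in these windows alone. The 3 export genes are shown because they share the letters around their start sites, with TGACGTG in capitals, beginning 26 bases before the start in Sec24d, 86 before it in Mia3 and 6 after it in Sec23a.
Sec24d (chr3:123267440-123267506, plus strand): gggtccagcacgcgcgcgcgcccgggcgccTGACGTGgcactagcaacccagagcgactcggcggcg
Mia3 (chr1:183369615-183369681, minus strand): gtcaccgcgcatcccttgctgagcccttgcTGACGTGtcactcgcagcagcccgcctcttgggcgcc
Sec23a (chr12:59011975-59012041, minus strand): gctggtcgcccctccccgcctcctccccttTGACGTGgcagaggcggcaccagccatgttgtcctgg

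The fourth of the genes with separate groups was one of propeptide cleavage. Pcolce (chromosome 5, 137605103 to 137613784, minus strand), the procollagen C-proteinase enhancer that speeds removal of the carboxyl propeptide, was read at 239, 305 and 262 CPM (controls) against 215, 227 and 213 CPM (mutants). The gap between the groups was small, the highest mutant being 5.18% below the lowest control. The log2 fold change was -0.30 ± 0.11, with an adjusted p of 0.429 in edgeR and 0.267 in DESeq2. Bmp1, the main procollagen C-proteinase, was read at 185, 219 and 186 CPM (controls) against 145, 192 and 148 CPM (mutants), with a log2 fold change of -0.28 ± 0.14. Its relatives Tll1 and Tll2 were at 3.10 to 4.30 CPM and 1.03 to 2.18 CPM and showed no separation, with log2 fold changes of -0.03 ± 0.17 and -0.06 ± 0.28. Bmp1 made up 97.8% to 98.0% of the summed TPM of the 3 proteinases in the controls and 97.3% to 97.8% in the mutants.

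Pcolce2, the second enhancer, differed more between libraries of 1 group than between the groups. It was read at 10.3, 62.5 and 9.89 CPM (controls) against 6.57, 25.4 and 6.18 CPM (mutants), so E434 held 6.18 times the mean of the other controls and E433 3.99 times that of the other mutants. Its log2 fold change of -1.12 had a standard error of 0.91 and turned to 0.33 without E434. Pcolce2 made up 8.24% of the enhancer TPM in E434 and 4.82% in E433 but 1.06% to 2.16% in the other libraries. The promoter windows of Loxl4 and Pcolce, the 2 members with separate groups for which a window is shown, are printed with the GC box letters GGGCGG (35.7% of all windows, read on either strand) in capitals. The same letters were found in 18 of the 22 members with a window (81.8%), so they do not set these 2 apart from the others. Loxl4 has 3 such matches and Pcolce 1.
Loxl4 (chr19:42612757-42613056, minus strand): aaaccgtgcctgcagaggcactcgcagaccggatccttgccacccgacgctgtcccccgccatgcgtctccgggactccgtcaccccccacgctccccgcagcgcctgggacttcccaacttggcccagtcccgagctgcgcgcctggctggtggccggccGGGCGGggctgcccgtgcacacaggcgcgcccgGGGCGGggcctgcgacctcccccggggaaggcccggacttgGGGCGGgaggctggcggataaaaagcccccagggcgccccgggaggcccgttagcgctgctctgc
Pcolce (chr5:137611355-137611654, minus strand): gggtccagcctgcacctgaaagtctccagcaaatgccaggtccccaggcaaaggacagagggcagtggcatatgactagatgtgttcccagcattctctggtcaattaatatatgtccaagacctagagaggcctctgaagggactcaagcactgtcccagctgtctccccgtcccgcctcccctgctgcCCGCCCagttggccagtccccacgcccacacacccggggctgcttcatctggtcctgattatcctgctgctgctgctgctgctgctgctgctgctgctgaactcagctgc

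All 4 prolyl 4-hydroxylase genes had lower means in the mutants, and none passed the test. P4hb, the protein disulfide isomerase that serves as the beta subunit, was the highest, at 984, 1401 and 973 CPM (controls) against 829, 1092 and 809 CPM (mutants). That gave a log2 fold change of -0.30 ± 0.20. P4ha1, the main catalytic alpha subunit, was read at 207, 364 and 203 CPM (controls) against 117, 224 and 120 CPM (mutants), where E433 lay above 2 of the controls. Its log2 fold change was -0.75 ± 0.34 with an adjusted p of 0.501 in edgeR, and those of P4ha2 and P4ha3 were -0.51 ± 0.34 and -0.54 ± 0.43. P4ha1 made up 56.2%, 54.6% and 55.7% of the alpha subunit TPM in the controls and 51.8%, 50.8% and 50.8% in the mutants, a difference of -4.34 percentage points. P4ha2 made up 33.3% to 35.6% in the controls and 36.7% to 40.3% in the mutants. Neither share overlapped between the groups (exact permutation test, p = 0.1 each, 0.383 adjusted).

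The prolyl 3-hydroxylation genes, P3h1 with its partners Crtap and Ppib (cyclophilin B), P3h2, P3h3 and the non-enzymatic P3h4, had log2 fold changes from -0.55 to -0.30 with a median of -0.50, and none passed the test. P3h1 was read at 172, 311 and 186 CPM (controls) against 125, 217 and 124 CPM (mutants) (log2 fold change -0.52 ± 0.31). Ppib, the highest of the group by TPM, was read at 144, 177 and 140 CPM (controls) against 117, 154 and 103 CPM (mutants) (log2 fold change -0.30 ± 0.17). In both, mutant E433 lay above the controls E420 and E435. P3h1 made up 49.5% ± 1.94 of the TPM of the 3 enzymes in the controls and 51.5% ± 0.87 in the mutants, and the groups overlapped.

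The lysyl hydroxylases and galactosyltransferases had log2 fold changes from -0.65 to -0.23, and none passed the test. Plod2, which hydroxylates the telopeptide lysines that set the type of crosslink, was read at 133, 319 and 127 CPM (controls) against 84.4, 201 and 84.6 CPM (mutants) (log2 fold change -0.65 ± 0.49). E434 was 2.46 times and E433 2.38 times the mean of the other libraries of its group. Plod2 made up 43.6% of the lysyl hydroxylase TPM in E434 and 40.7% in E433, against 35.9% to 36.1% in the other controls and 29.4% to 29.7% in the other mutants. Colgalt1, which adds galactose to hydroxylysine and was the highest of the group by TPM, was read at 165, 224 and 161 CPM (controls) against 135, 202 and 133 CPM (mutants) (log2 fold change -0.23 ± 0.21). Colgalt2, its relative, was read at 10.5, 31.6 and 12.2 CPM (controls) against 7.43, 22.5 and 7.82 CPM (mutants).

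Of the chaperones, Serpinh1 (HSP47), which binds the folded procollagen triple helix, had the highest TPM of all 35 members. It was read at 1732, 2490 and 1656 CPM (controls) against 1135, 1868 and 1111 CPM (mutants), with E433 above 2 of the controls. Its log2 fold change was -0.52 ± 0.27 with an adjusted p of 0.538 in edgeR. Fkbp10 (FKBP65), a prolyl isomerase needed for lysyl hydroxylation of collagen telopeptides, was read at 186, 298 and 184 CPM (controls) against 124, 191 and 123 CPM (mutants) (log2 fold change -0.61 ± 0.26). Here E433 exceeded the lowest control by 3.83%. Fkbp14, a related isomerase, had a log2 fold change of -0.43 ± 0.23.

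Leprotl1, the listed gene without an assigned step, was the other member with a higher mean in the mutants, at 27.9, 25.9 and 28.9 CPM (controls) against 39.1, 25.5 and 40.9 CPM (mutants). Mutant E433 was the lowest library of all, and the log2 fold change was 0.35 ± 0.18 with an adjusted p of 0.540 in edgeR.

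Compared per transcript length, the members spanned from under 1 to over 1000 TPM. Mean TPM was highest for Serpinh1 (1294 in the controls, 897 in the mutants), then Ppib (690 and 560), P4hb (594 and 464) and Pcolce (258 and 206), and these 4 were the members with at least 100 TPM in every library. Below them stood Lox (162 and 102 TPM), Fkbp10 (160 and 100.4), Crtap (148 and 117), P4ha1 (122 and 71.7) and P3h1 (118 and 85.0), whose ranges over the libraries overlapped. At the low end were Pcolce2 (12.2 and 5.46 TPM), Colgalt2 (6.11 and 4.21), Tll1 (0.973 and 0.917) and Tll2 (0.490 and 0.447). Among the lysyl oxidases the order by mean control TPM was Lox, Loxl2 (80.8), Loxl1 (50.1), Loxl3 (28.3) and Loxl4 (17.7). The range over the libraries of each gene overlapped that of the next, and in E434 Loxl3 exceeded Loxl1 (63.5 against 53.0 TPM). In the other controls, E420 and E435, Loxl3 (10.76 and 10.72 TPM) was below Loxl4 (12.29 and 10.91 TPM).

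**Figure D4:**
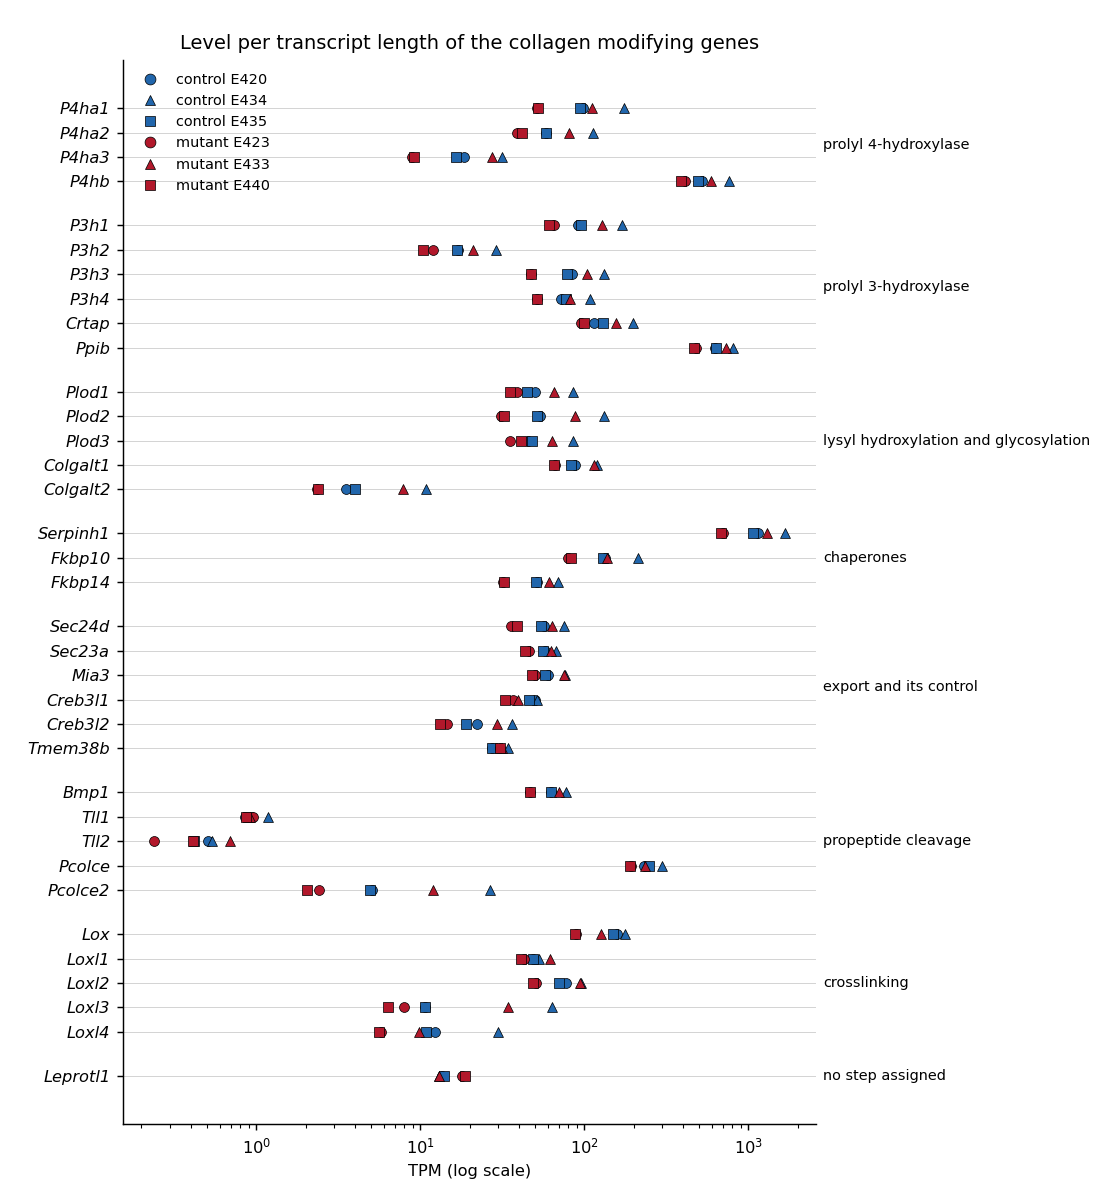
TPM of each member in each library on a log axis, grouped by step, with controls in blue and mutants in red. Serpinh1, Ppib, P4hb and Pcolce lie above 100 TPM in every library, and Tll1 and Tll2 lie near or under 1 TPM.

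E434 and E433 lay apart from the other libraries of their groups in most members. E434 was higher than both other controls in 33 of the 35 members, and E433 higher than both other mutants in 31. Against the mean of the others the counts were also 33 and 31, and 12877 and 13458 of all 26596 genes. In 30 members the ratio was above 1 for both (E434 over the mean of the other controls, E433 over that of the other mutants), against 29.4% of all genes. The exceptions, the members for which either library was not above the mean of its group's others, were Creb3l1, Tmem38b, Tll1, Tll2 and Leprotl1. The median log2 ratio of the members was 0.52 for E434 and 0.62 for E433, where it was -0.01 and 0.01 over all genes tested. The cartilage marker list had median ratios of 4.04 and 4.05 on the same scale.

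Without E434 and E433, the remaining controls E420 and E435 and mutants E423 and E440 gave tight and separate values. In 32 members both of these mutants lay below both controls (background 30.7%), and in 3 they lay above (background 30.3%). Without E433 alone, both of these mutants lay below all 3 controls in 32 members (background 23.0%) and above them in 1 (background 23.7%), and without E434 alone all 3 mutants lay above the other controls in 1 (background 14.1%). In the edgeR fit on these 4 libraries 31 members had an adjusted p under 0.1 and were lower (background 18.3%) and 2, Tmem38b and Leprotl1, were higher (background 19.4%); Tll1 and Tll2 did not pass. None reached a log2 change of 1. The median log2 fold change was -0.45, and the largest were those of Loxl4 (-0.84 ± 0.07), P4ha1 (-0.79 ± 0.05), P4ha3 (-0.78 ± 0.07), Lox (-0.70 ± 0.04) and Pcolce2 (-0.66 ± 0.11). Tmem38b was at 0.30 ± 0.05 and Leprotl1 at 0.50 ± 0.06. These p-values measure the spread within close pairs of libraries, and the 2 mutants also held less of the cartilage and osteoblast markers and more of the keratinocyte, muscle and adipocyte markers than the 2 controls.

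Mutant E433 set against control E434 gave the same direction for most members, as single libraries with no test. E433 was below E434 in 33 of the 35 and in 12664 of all 26596 genes tested. It was at 34.0% of the level in E434 for Loxl4, 40.6% for Pcolce2, 61.6% for P4ha1, 68.1% for Lox and 75.0% for Serpinh1. The exceptions were Loxl1 at 112% and Tll2 at 132%. In 30 members both ratios were below 1 (background 26.0%). Lox and Creb3l1 had similar log2 ratios in the sets, -0.70 and -0.55 for Lox and -0.35 and -0.46 for Creb3l1, whereas Loxl4 went from -0.84 to -1.55 and Loxl2 from -0.48 to -0.12. All 12 cartilage markers and all 11 osteoblast markers were also lower in E433 than in E434, with median log2 ratios of -1.34 and -1.88, and the keratinocyte markers were higher, with a median of 7.11. Their part in these ratios was not tested.

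**Figure D5:**
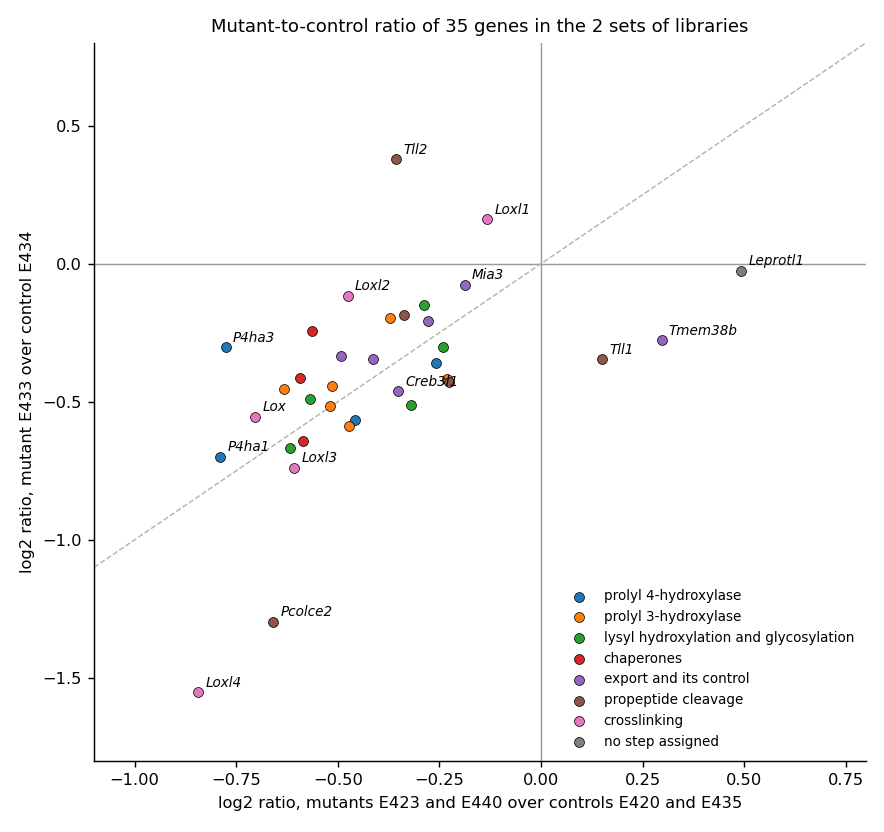
Each point is a member; the x axis is the log2 ratio of mutants E423 and E440 over controls E420 and E435, the y axis that of mutant E433 over control E434, and the dashed line marks equal ratios. 30 of the 35 genes lie in the lower left of the plot, with Loxl4 and Pcolce2 lowest.

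With the mean log2 CPM of the cartilage list as a covariate in the edgeR fit over all 6 libraries, the median log2 fold change of the members was -0.17 and 27 were below 0. The adjusted p was under 0.1 for 4 members, all lower (background 0.932%): Lox at -0.56 (adjusted p = 0.0247), P4ha1 at -0.44 (0.0288), Fkbp10 at -0.36 (0.0515) and Creb3l1 at -0.38 (0.0887). None had a log2 change of 1. In this fit Loxl4 was at -0.72 with an adjusted p of 0.152, and Pcolce2, Colgalt2 and Mia3 were at -0.04, 0.0052 and -0.0064. The covariate was itself measured in these libraries and differed between the groups.

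The collagens on which these proteins act had a lower median log2 fold change than the members, and E434 was highest for most of them. Of the 10 substrate genes 9 had log2 fold changes below 0, with a median of -0.98, and none was called by edgeR or by DESeq2 with both limits, though DESeq2 gave no adjusted p for Col2a1, Col9a1 and Col11a2. Type I collagen was lower in every mutant than in every control: Col1a1 was at 9798 to 14932 CPM in the controls and 7152 to 7787 CPM in the mutants (log2 fold change -0.65 ± 0.21), and Col1a2 was at -0.61 ± 0.20. The adjusted p of Col1a1 and Col1a2 was 0.407 and 0.409 in edgeR and 0.0189 and 0.0239 in DESeq2, where both fell short of the fold limit alone. The cartilage collagens Col11a2 (-1.60 ± 1.15) and Col2a1 (-1.57 ± 1.76) had wide errors. Col3a1, of skin and other soft tissue, was at 0.14 ± 0.18. Per 1000 TPM of these 10 collagens, the prolyl 4-hydroxylases summed to 66.2 to 86.1 TPM in the controls and 78.3 to 83.9 TPM in the mutants, and the crosslinking genes to 25.7 to 37.5 and 31.6 to 32.4 TPM. E434 was lowest of all libraries in each of these sums. Loxl4 was the member with the lowest ratio of mutant to control means on this scale, 1.57 and 0.949 TPM per 1000 TPM of collagen, and its groups did not overlap.

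Other genes of collagen handling were taken from lists set by function. All 10 further folding genes of the endoplasmic reticulum had log2 fold changes below 0, from -0.49 to -0.19, and none was called. In Fkbp7, another prolyl isomerase, every mutant lay below every control, at 69.2, 76.6 and 72.7 CPM and at 47.0, 59.0 and 49.0 CPM, with a log2 fold change of -0.49 ± 0.11 and an adjusted p of 0.278 in edgeR and 0.0140 in DESeq2. Of 13 further export genes 10 were below 0, with a median of -0.11, and none was called. Of 11 further processing and fibril genes 7 were below 0 and 4 above, from Fmod (-1.38 ± 0.84), a small proteoglycan that binds fibrils, to Tgm2 (0.82 ± 0.35), a transglutaminase that makes another kind of crosslink, and none was called.

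Reads were counted without regard to strand, so 13 members that share exon bases with other genes are less certain. The shared stretch was longest in P3h2 (1055 bases with Gm4524) and Ppib (825 bases with Snx22), and RSEM, which shares reads out among transcripts, assigned 2.47 times as much to Ppib, 1.35 times to Loxl2 and 1.30 times to P3h2 as the count table held. Lox shared 30 bases, Pcolce 112 and Loxl4 and Creb3l1 none.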

How the data were processed

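RNA from 6 rib cages, 3 control and 3 mutant, was sequenced by the authors as stranded, paired libraries. Per the file headers and the study's methods, the deposited counts were made by the authors with HISAT2 2.1.0 and featureCounts 1.6.0 on GRCm38 (exons summed per gene, primary alignments, each read end counted, no use of strand). The authors also deposited expected counts and TPM from STAR 2.7.6 and RSEM 1.2.31; expected counts were rounded to whole numbers for a fit and TPM was used to compare levels between genes. Tables of the authors' own fold changes and p-values, with 12 columns of per-sample values, were not used.

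Counts were scaled by TMM, genes with at least 10 counts in all were kept, and mutants were compared with controls by edgeR 4.0.16 (quasi-likelihood F test, 3 against 3 libraries, no covariate, adjustment over 26596 genes, called at an adjusted p under 0.1 and a log2 change of at least 1). Standard errors are the log2 change divided by the square root of F. DESeq2 1.42.0 was the other test. The fits were tested on simulated data. Log2 ratios between library sets used CPM plus 0.1. Shares within families of TPM were compared by exact permutation of the 6 libraries. All 35 members are named; values of each library are given for those called, those with groups apart and the highest of each step, with other members added after their values were seen, and other pathway genes by the size of their change (Col1a1, Col1a2 and Col3a1 were added after their values were seen). Members and lists were chosen with earlier results of these data known. Replicate numbers were given in order and pair no samples. Nothing says how p-values relate to litters, so they measure the spread between these embryos. Depth was 37853988 to 47794799 counts, so members from 43 counts upward were measured in every library.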

Additional observations from a re-analysis of the deposited data

How the results depend on the processing

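No member was called lower under RLE size factors, robust moderation, filterByExpr, no filter on low counts, RSEM counts, an adjusted p under 0.05 or no fold limit. With DESeq2 the count was 1 (Loxl4). Leaving out each library in turn gave 0 to 2. The 2, P4ha1 and P4ha3, came without E433, with adjusted p of 0.0853 and 0.0892 in edgeR. No share of all genes called was computed for these fits. Alternatives chosen after seeing the data were fits with no fold limit. DESeq2 then gave 3 lower (background 1.73%) and edgeR with the cartilage covariate 4 lower (background 0.932%). Without E434 and E433, edgeR gave 31 lower and 2 higher (backgrounds 18.3% and 19.4%). DESeq2 without those libraries gave 30 and 2, for which no share of all genes was computed. Members with all mutants below all controls numbered 4 to 32 with 1 library left out, 32 being without E433 (23.0% of all genes) and 32 also without E434 and E433 (30.7% of all genes); members with all mutants above all controls numbered 0 to 1 with 1 library left out and 3 without E434 and E433. The median log2 fold change stayed between -0.64 (without E433) and -0.17 (without E434, and with the covariate). No paired analysis was possible because the labels do not say which embryos shared a litter.

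In 28 of 35 members the sign held in every alternative. With the cartilage covariate it reversed for Plod3 (0.029), Colgalt2 (0.0052), Tll1 (0.034), Tll2 (0.040), Loxl1 (0.053) and Loxl3 (0.20), and without E434 and E433 for Tll1 (0.15). With 1 library left out the log2 fold change ran from -0.57 to 0.061 for Plod3, -1.24 to 0.14 for Colgalt2, -0.12 to 0.12 for Tll1, -0.32 to 0.18 for Tll2, -2.11 to 0.33 for Pcolce2, -0.16 to 0.053 for Loxl1 and -1.88 to 0.57 for Loxl3. The positive end came without E434 for all but Tll2 (without E423) and Loxl1 (without E440). Of the shares, in percentage points, the difference ran from -3.73 to 2.37 for Loxl3, -2.97 to 0.317 for Pcolce2 and -3.29 to 5.20 for Creb3l1, and no share reversed with RPKM. The cause was not tested.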
